A study of Glycine max with 8 samples.

Results

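The 7 transcripts described here encode subtilases, serine peptidases whose messages fell in soybean leaves during drought. In the order of their loci by chromosome they are Glyma.04G044600-1, Glyma.05G152200-1, Glyma.06G045100-1, Glyma.07G050200-1, Glyma.14G087500-1, Glyma.16G018900-1 and Glyma.17G236800-1. They were taken as a fixed list of peptidase transcripts that the study names and were matched by name. They are 7 of 77681 named entries on the array and 7 of 55087 entries tested. Probes for a unique exon of a transcript can form an entry of their own, and all entries are called transcripts here. All 7 carry the Peptidase_S8 domain in the study's annotation, so the list holds no peptidase of another family. The study named them for falls at both droughts measured on these same arrays, so those falls are given below as a description. Where calls of the 7 in these comparisons are counted, they restate the choice and are not evidence for it. The comparison of re-watered with never-stressed leaves did not enter that choice, although the WT1 arrays did, and only there are p values of the 7 given. A choice by falls from WT1 favours high WT1 readings, so those p values are no fully independent test.

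RNA was taken from leaves of soybean seedlings, Glycine max cultivar Daepoong, and hybridised to 8 single-colour arrays, 2 biological replicates for each of 4 conditions. WT1 leaves came from seedlings grown with water for 7 days and then kept watered. DR1 leaves came from seedlings of the same age after water had been withdrawn for 4 days, WT2 leaves from that dried plate after 1 day of re-watering, and DR2 leaves from the plate after a second withdrawal of 4 days. The treatment label of DR1 says 4 hours, whereas the treatment protocol and the study's methods say 4 days, and 4 days is used here. WT2 and DR2 therefore share the first drought, and the leaves of later conditions are also older, so age and treatment cannot be told apart across WT1, WT2 and DR2. Several primary leaves of a plate were collected for a condition. Slide 1 held the arrays of WT1 and DR1, and slide 2 those of WT2 and DR2.

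Subtilases are serine peptidases with a catalytic triad of aspartate, histidine and serine. Most plant members are made as inactive precursors, lose a propeptide, and act in the cell wall and the apoplast, where they trim cell wall enzymes and release peptide signals from their precursors. Their large families in plants are known for parts in seed coat, stomatal and root development and in responses to pathogens. By the study's annotation, Glyma.04G044600-1 and Glyma.06G045100-1, and with them Glyma.17G236800-1 and Glyma.14G087500-1, are counterparts of Arabidopsis ARA12, a subtilase that in Arabidopsis is needed for the release of seed coat mucilage. Glyma.16G018900-1 and Glyma.07G050200-1 share another Arabidopsis counterpart, described there only as a subtilase family protein. Glyma.05G152200-1 is the counterpart of AIR3, which in Arabidopsis was found as an auxin-induced message of roots forming lateral roots. The locus names place the 7 genes on 7 different chromosomes, 4, 5, 6, 7, 14, 16 and 17.

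The median spot signal of the 8 arrays lay between 87 and 159.5 units over a background of 27 to 33, between 55.2% and 65.2% of probes were well above background on an array, and no spot was saturated. The share well above background was lowest on the DR2 arrays, at 57.3% and 55.2%. Rubisco small subunit and chlorophyll a/b-binding proteins mark green leaf tissue. Of 16 transcripts so annotated, 12 were called lower at DR1 than at WT1, where 3.84% of all transcripts tested were. Again 12 were called lower at DR2 than at DR1, where 8.39% of all were. None of the 16 was called lower at WT2 than at WT1, where 0.0472% of all were. Their summed intensity was 1144345 and 1107030.2 units at WT1, 245519 and 288162 at DR1, 972149 and 1022629 at WT2, and 9949 and 11807 at DR2, where 12 and 11 of the 16 still had a probe well above background. The green leaf markers thus fell, returned and fell further on the same arrays as the subtilases. All 6 oleosin transcripts in the annotation used, known from seeds, were called higher at DR1 than at WT1, where 3.6% of all were. Their sums were 4579 and 4365 units at DR1 against 102.3 and 102.5 at WT1, where no oleosin was well above background. Most of the 6 were listed by the study for rising at DR1 on these same arrays, so their calls there follow from that choice. The green leaf list comes from the same partial annotation, which mostly holds transcripts chosen for their response. The part of these shifts in the values of the subtilases was not tested, and in whole leaves fewer cells of a type and less RNA per cell cannot be told apart. Values below are normalized intensities, the antilog of the mean log2 intensity over a transcript's probes, and are compared only within a transcript.

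All 7 subtilase messages were lower on both DR1 arrays than on both WT1 arrays, and lower still on both DR2 arrays. A transcript was called when it changed by over 4-fold with an adjusted p below 0.05 in a limma model of the 8 arrays. By that rule 6 of the 7 were called lower at DR1 than at WT1, where 3.84% of all transcripts tested were. Again 6 of 7 were called lower at DR2 than at DR1, where 8.39% of all were. The same 6 were called lower at both steps, against 1.11% of all transcripts, and Glyma.07G050200-1 was the exception. With 1 array left out between 4 and 6 were called at both steps, 4 of them without WT1 replicate 2 or either DR1 array. With an offset of 50 added to the background-corrected signals, 3 were, and in the normalized table that the authors deposited all 7 were. Arrays that do not overlap are common here, since 36.2% of all transcripts lay lower on both DR1 arrays than on both WT1 arrays and 42.7% lower on both DR2 arrays than on both DR1 arrays. These shares are set beside the counts only for scale, since the choice of the transcripts fixed the counts. The median change of the 7 was -3.23 on the log2 scale at DR1 relative to WT1 and -2.96 at DR2 relative to DR1, beside medians of 0.05 and -0.08 over all transcripts tested. All 7 were called lower at DR2 than at WT2 and than at WT1, where 15.1% and 14.4% of all transcripts were, with medians of -5.17 and -6.62. The difference between the drought responses, the change at DR2 relative to WT2 minus that at DR1 relative to WT1, was called lower in 6 of 7, against 10.3% of all, and uses the arrays of WT1, DR1 and DR2 that also chose the 7.

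**Figure D1:**
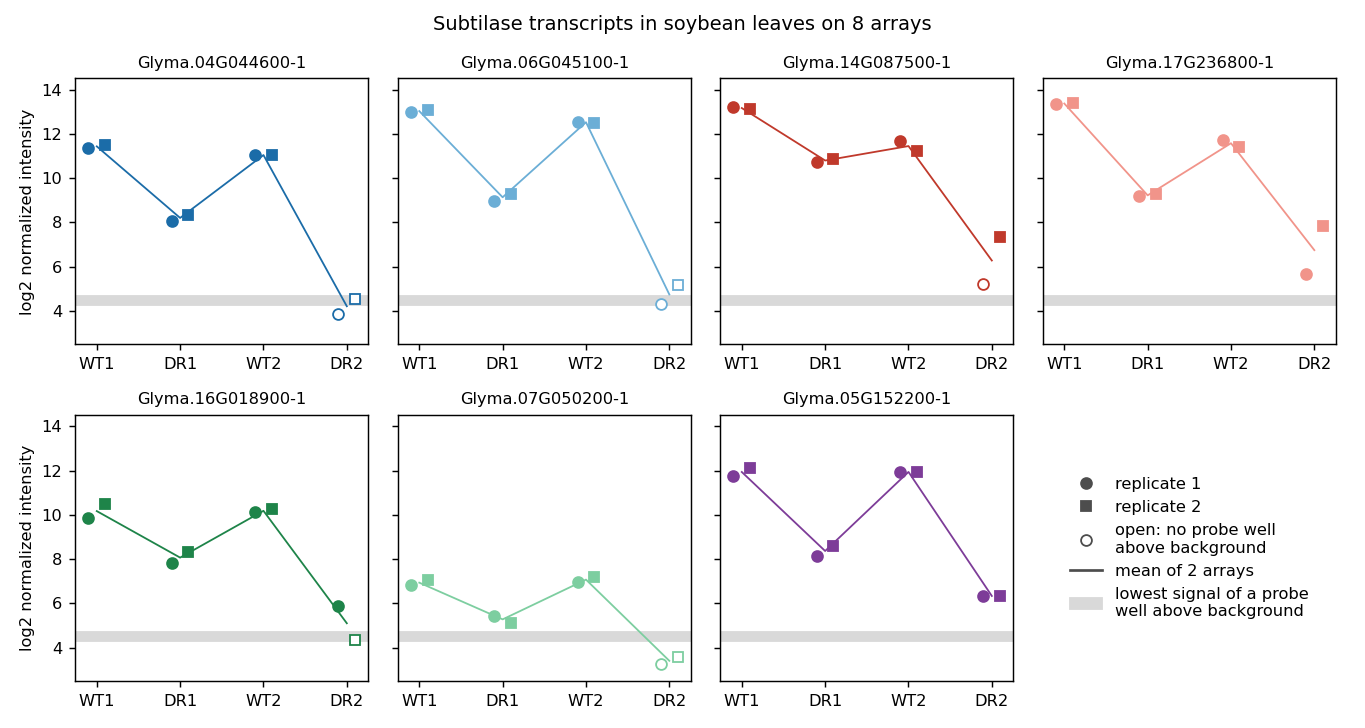
Log2 normalized intensity of the 7 subtilase transcripts at WT1, DR1, WT2 and DR2, with 1 point for each array, lines through the means of 2 arrays, and open symbols where no probe of the transcript was well above background. Every panel falls at DR1, recovers at WT2 in full or in part, and reaches its lowest level at DR2, while WT2 stays farthest below WT1 in the panels of Glyma.14G087500-1 and Glyma.17G236800-1.

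Among the ARA12 counterparts, Glyma.04G044600-1 measured 2642 and 2892 units at WT1, 265 and 327 at DR1, 2111 and 2102 at WT2, and 14.6 and 23.6 at DR2. Both DR1 arrays lay far below both WT1 arrays, and its 3 probes all failed to rise well above background on either DR2 array. Its log2 change was -3.23 ± 0.27 (SE of the model) at DR1 relative to WT1 and -3.99 ± 0.27 at DR2 relative to DR1. Because the DR2 signal lies in the background, DR2 is also set against a floor, where it was 11.7-fold lower than DR1 and 84-fold lower than WT2. Here and below the floor is the weakest signal that still counted as well above background on the same array. The transcript's own signal was kept where that was higher. This floor is not a detection limit, since some dim probes read above it. On DR2 replicate 2 it was 24.98 units, while a probe of Glyma.06G045100-1 that was not well above background read 47.2. Values against the floor are therefore not strict lower bounds.

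Glyma.06G045100-1 measured 8172 and 8505 units at WT1, 501 and 631 at DR1, 5996 and 5779 at WT2, and 19.8 and 36.4 at DR2. The order of the 4 conditions was that of Glyma.04G044600-1, with no overlap between neighbouring conditions, and again none of the 3 probes was well above background at DR2. The log2 changes were -3.89 ± 0.30 at DR1 relative to WT1 and -4.39 ± 0.30 at DR2 relative to DR1. Set against the floor, DR2 was 18.6-fold lower than DR1 and 194-fold lower than WT2. Relative to WT1, DR2 was 275-fold lower by the same measure.

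Glyma.14G087500-1 measured 9388 and 8958 units at WT1, 1705 and 1848 at DR1, 3281 and 2374 at WT2, and 36.7 and 164.6 at DR2. The first drought left more of this message than of the other ARA12 counterparts relative to their own WT1 level, and re-watering brought only a small recovery. At DR2 both of its probes were dim on the replicate 1 array and well above background on the replicate 2 array. The log2 changes were -2.37 ± 0.57 at DR1 relative to WT1 and -4.51 ± 0.57 at DR2 relative to DR1. Without DR2 replicate 1 the second of these was -3.43, and without DR2 replicate 2 it was -5.60.

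Glyma.17G236800-1 measured 10419 and 10704 units at WT1, 580.1 and 613 at DR1, 3395 and 2740.3 at WT2, and 50.8 and 227 at DR2. The replicate 2 array was again the higher of the DR2 pair, and 1 probe of its 2 could still be told from background on both DR2 arrays. The log2 changes were -4.15 ± 0.57 at DR1 relative to WT1 and -2.47 ± 0.57 at DR2 relative to DR1. Without DR2 replicate 1 the second of these was -1.39, under 4-fold, and without DR2 replicate 2 it was -3.55.

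Glyma.14G087500-1 and Glyma.17G236800-1 thus reached similar totals by different steps. The change at DR2 relative to WT1 was -6.88 for Glyma.14G087500-1 and -6.62 for Glyma.17G236800-1. Most of the fall of Glyma.17G236800-1 came in the first drought and most of the fall of Glyma.14G087500-1 between the first and the second. The fall at DR2 relative to WT2 exceeded the fall at DR1 relative to WT1 by 6.95-fold (log2 difference -2.80 ± 0.81) in Glyma.14G087500-1, and by 1.6-fold (-0.68 ± 0.80) in Glyma.17G236800-1. The value of Glyma.17G236800-1 changed sign with the DR2 array used, at 0.40 without DR2 replicate 1 and -1.76 without DR2 replicate 2. For the other 5 transcripts this log2 difference lay between -3.89 and -2.01.

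In the pair with the shared uncharacterised counterpart, Glyma.16G018900-1 measured 934 and 1416 units at WT1, 223 and 322 at DR1, 1101 and 1223 at WT2, and 58.2 and 20.3 at DR2. WT1 and WT2 arrays overlapped, both DR1 arrays lay below them, and here the replicate 1 array was the higher of the DR2 pair. Most of that difference was in 1 probe, which gave 288 units on DR2 replicate 1 and 49.4 on DR2 replicate 2, while the other probe was not well above background on either. The log2 changes were -2.10 ± 0.46 at DR1 relative to WT1 and -2.96 ± 0.46 at DR2 relative to DR1. The first of these was 4.29-fold, close to the 4-fold limit, and without WT1 replicate 2 it was -1.80, under that limit.

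Glyma.07G050200-1 measured 114 and 132 units at WT1, 43.5 and 34.6 at DR1, 125 and 145 at WT2, and 9.56 and 11.8 at DR2. WT1 and WT2 overlapped, and the fall at DR1 relative to WT1 was 3.15-fold. No probe was well above background at DR2. The mean intensities were 3.66-fold lower at DR2 than at DR1, but only 1.55-fold lower when DR2 was set against the floor. These means mix 2 unlike probes. The first was not well above background on any of the 8 arrays, with intensities between 6.97 and 22.9. The other measured 775 and 1099.5 units at WT1, 122 and 172 at DR1, 856 and 915 at WT2, and 8.53 and 13.3 at DR2. On that probe alone the log2 changes were -2.67 at DR1 relative to WT1 and -3.76 at DR2 relative to DR1, and with the dark probe left out, a choice made after seeing the data, all 7 subtilases were called lower at both steps.

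The AIR3 counterpart, Glyma.05G152200-1, measured 3459.9 and 4416 units at WT1, 282 and 386 at DR1, 3898 and 3938 at WT2, and 81.2 and 80.4 at DR2. The WT2 values lay within the WT1 range, and the DR2 pair was the closest among the 7 transcripts. The log2 changes were -3.57 ± 0.24 at DR1 relative to WT1 and -2.03 ± 0.24 at DR2 relative to DR1. The second of these, 4.08-fold, was the smallest called fall of the 7 at DR1 relative to WT1 or at DR2 relative to DR1, while the 3.15-fold of Glyma.07G050200-1 at DR1 lay outside the limit. Of its 3 probes, 1 stayed well above background on both DR2 arrays, at 364 and 263 units. The other 2 were well above background on neither, at 28.3 and 49.4 and at 52 and 40 units. The probes thus differed between the DR2 arrays in opposite directions, which the close pair of means does not show.

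The probes showed how far the second fall can be measured. The probes of a transcript lie around its stop codon and overlap each other, so they are repeated readings of 1 message and not replicates. All 17 were lower at DR1 than at WT1, and 15 of them by 4-fold or more. Of the 17, 16 were well above background on both arrays of WT1, of DR1 and of WT2. At DR2 only 2 were well above background on both arrays and 11 on neither, so for most probes the second fall runs into the background, where its measured size is uncertain. The probe of Glyma.07G050200-1 that was dark on every array gave the smallest changes in both droughts, -0.64 at DR1 relative to WT1 and 0.02 at DR2 relative to DR1.

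**Figure D2:**
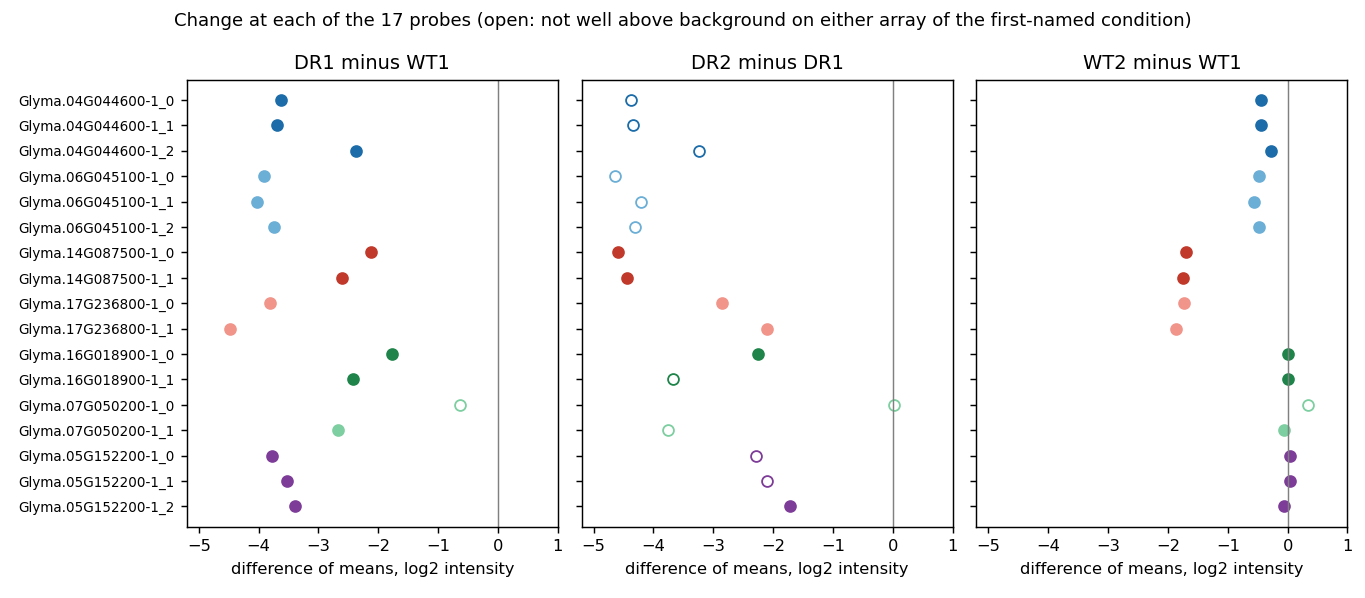
Difference of mean log2 intensity at each of the 17 probes of the 7 transcripts, with the first-named condition minus the second, coloured by transcript and open where the probe was not well above background on either array of the first-named condition. All 17 points are below 0 for DR1 minus WT1, 11 are open for DR2 minus DR1, and for WT2 minus WT1 the 4 probes of Glyma.14G087500-1 and Glyma.17G236800-1 stand apart between -1.86 and -1.69.

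After 1 day of re-watering the 7 transcripts stood at unlike shares of their WT1 level. The levels of Glyma.05G152200-1, Glyma.16G018900-1 and Glyma.07G050200-1 overlapped between WT2 and WT1, with log2 differences of 0.00 ± 0.24 (95% interval -0.54 to 0.55), 0.01 ± 0.46 (-1.04 to 1.07) and 0.14 ± 0.23 (-0.40 to 0.67), and adjusted p of 1, 0.99 and 0.8. The WT2 values of Glyma.04G044600-1 and Glyma.06G045100-1 lay below their WT1 values on every array, at 76.2% and 70.6% of the WT1 level. Their differences of -0.39 ± 0.27 (95% interval -1.01 to 0.22, adjusted p = 0.47) and -0.50 ± 0.30 (-1.19 to 0.18, adjusted p = 0.41) did not pass the test. Glyma.14G087500-1 stood at 30.4% and Glyma.17G236800-1 at 28.9% of the WT1 level, both WT2 arrays being below both WT1 arrays.

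The log2 difference at WT2 relative to WT1 was -1.72 ± 0.57 for Glyma.14G087500-1 (95% interval -3.03 to -0.40, adjusted p = 0.15) and -1.79 ± 0.57 for Glyma.17G236800-1 (-3.09 to -0.50, adjusted p = 0.13). They ranked as the 67th and the 54th lowest of the 55087 changes in this comparison. None of the 7 was called by limma, where 0.0472% of all transcripts were called lower and 0.396% were called higher. Of the 7, these 2 had an unadjusted p below 0.05, where 8.65% of all were lower at that level. Arrays did not overlap for 4 of the 7, all lower at WT2, beside 27.1% of all transcripts. The median change of the 7 was -0.39, and that of all transcripts -0.06.

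The replicates of these 2 transcripts were farthest apart at DR2. The log2 SD between the 2 arrays was 1.53 at DR2 for either transcript, against 0.33 and 0.22 at WT2 and 0.05 and 0.03 at WT1, and the model pools the 4 conditions. Without either DR2 array the adjusted p was 0.012 for Glyma.14G087500-1 and 0.011 for Glyma.17G236800-1, and in a fit of the WT1 and WT2 arrays alone, added after seeing the data, it was 0.034 and 0.031. Over all alternatives tried it ran between 0.012 and 0.44 for Glyma.14G087500-1 and between 0.011 and 0.41 for Glyma.17G236800-1, the change lying between -1.95 and -1.48 and between -1.95 and -1.64. The 2 probes of each transcript read alike, at -1.69 and -1.74 for Glyma.14G087500-1 and -1.73 and -1.86 for Glyma.17G236800-1. WT1 and WT2 were on different slides, so slide and condition cannot be told apart in this comparison.

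**Figure D3:**
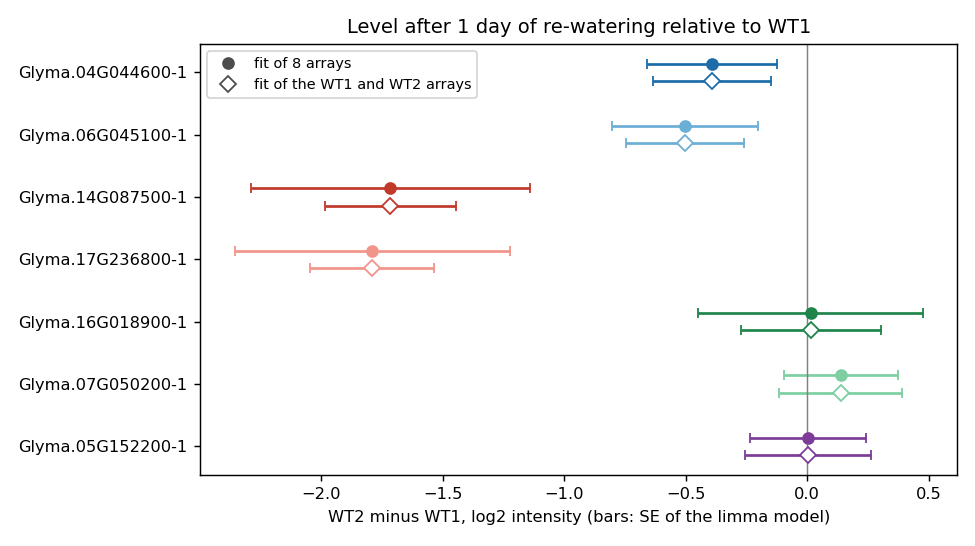
Log2 difference of WT2 minus WT1 for the 7 transcripts, with the SE of the limma model as bars, from all 8 arrays (filled) and from the WT1 and WT2 arrays alone (open). Glyma.14G087500-1 and Glyma.17G236800-1 lie at -1.72 and -1.79 in both fits with shorter bars in the smaller one, and the other 5 transcripts lie between -0.50 and 0.14.

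Expressed as a share of the log2 fall in the first drought, re-watering restored 100% of it in Glyma.05G152200-1, 101% in Glyma.16G018900-1 and 108% in Glyma.07G050200-1. It restored 87.9% in Glyma.04G044600-1 and 87.1% in Glyma.06G045100-1. The values were 56.8% in Glyma.17G236800-1 and 27.6% in Glyma.14G087500-1, so the nearly equal WT2 levels of these 2, relative to WT1, followed unequal first falls. By array the share was 37.4% and 17.7% in Glyma.14G087500-1 and 60.5% and 53.1% in Glyma.17G236800-1, with no overlap between the 2 transcripts.

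Likeness between the 8-array profiles was measured as the root mean square difference of log2 intensities after each profile was centred on its mean. With all probes used, Glyma.06G045100-1 was the closest of the other 6 transcripts to Glyma.04G044600-1, at 0.43, and the reverse held as well. Glyma.17G236800-1 and Glyma.14G087500-1 were likewise each other's closest, at 0.81, but Glyma.05G152200-1 was nearly as close to Glyma.17G236800-1, at 0.86. The measure also takes in differences between replicates, and both transcripts read higher on DR2 replicate 2 than on DR2 replicate 1. How far that shared split sets their closeness was not tested. Glyma.16G018900-1 and Glyma.07G050200-1, which share a counterpart, differed by 0.79, or 0.77 without the dark probe, and Glyma.16G018900-1 was nearer to Glyma.05G152200-1, at 0.71. Without the dark probe Glyma.07G050200-1 and Glyma.04G044600-1 were each other's closest, at 0.31. Glyma.06G045100-1 was then no longer the closest to Glyma.04G044600-1. Whether probes of like subtilases bind each other's message was not tested, since no probe sequence was used here.

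Outside the 7, the profiles closest to their mean were those of Glyma.07G057200-1, at 0.10, and Glyma.16G026200-1, at 0.12, neither annotated in the tables used, then Glyma.17G140300-1, with a hydrophobic seed protein domain, at 0.16. Glyma.14G150600-1, with a Rieske iron-sulphur domain, followed at 0.21 and Glyma.03G179900-1, with a fasciclin domain, at 0.22. The 7 transcripts ranked only between 214th and 1881st in closeness to their own mean, so many other messages of the array ran nearer to it than they did. The single transcript nearest to Glyma.07G050200-1 was Glyma.16G019000-1, at 0.14, whose locus number follows that of Glyma.16G018900-1 and which had no annotation in the tables used. It measured 125.5 and 189 units at WT1, 45.8 and 37.4 at DR1, 143 and 149 at WT2, and 10.8 and 13 at DR2. That closeness rests on the mean that includes the dark probe, since the changes of Glyma.16G019000-1, -1.90 at DR1 relative to WT1 and -1.81 at DR2 relative to DR1, were smaller than those of the other probe of Glyma.07G050200-1, -2.67 and -3.76.

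None of the other annotated subtilases was called lower at DR2 than at DR1. The annotation used here, a part of the study's tables that mostly holds transcripts chosen for their response on these arrays, names 17 Peptidase_S8 transcripts, of which 10 are not among the 7. Of these 10, 5 fell and 3 rose past the limits at DR1 relative to WT1, and 2 were not called. Among all transcripts 3.84% were called lower and 3.6% higher there. The unique-exon entry of Glyma.16G116000-1 is counted among the 10 and was not called. None of the 10 was called lower at DR2 than at DR1 by limma, where 8.39% of all were. Of the 10, 8 lay lower on both DR2 arrays, as did 42.7% of all transcripts. By limma 4 of the 10 were lower with an adjusted p below 0.05. The share of all at that adjusted p was not counted, and 31.5% of all were lower with an unadjusted p below 0.05. Transcripts called at both steps were what the 7 were named for, so this contrast between the lists follows from the choice.

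Among the 17 annotated subtilases the largest first falls were outside the 7. Glyma.11G224600-1 measured 8528 and 12246 units at WT1, 154 and 157 at DR1, 7759.7 and 7486 at WT2, and 52 and 107 at DR2. Its log2 change was -6.04 ± 0.34 at DR1 relative to WT1 (adjusted p = 3.7e-05) and -1.06 ± 0.34 at DR2 relative to DR1 (adjusted p = 0.031). Glyma.18G033500-1 followed the same course, with changes of -5.16 ± 0.33 and -1.08 ± 0.33. Glyma.02G252200-1 (-2.64 and -1.18) and Glyma.08G109000-1 (-2.73 and -0.99) also fell at both steps, Glyma.02G252200-1 with no probe well above background at DR2, and Glyma.13G110800-1 changed by -2.27 and then by 0.14.

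The subtilases that rose were Glyma.16G116000-1, with a log2 change of 3.08 at DR1 relative to WT1, Glyma.09G195100-1, with 2.06, and the second transcript of that locus, Glyma.09G195100-2, with 2.04. None of the 3 was called at DR2 relative to DR1, with changes of -0.45, -0.66 and -0.62. Glyma.09G195100-1 measured 629 and 575 units at WT2 against 203 and 231 at WT1, a log2 change of 1.47 ± 0.32 (adjusted p = 0.048), under the 4-fold limit. Its WT2 level was thus above WT1 where those of Glyma.17G236800-1 and Glyma.14G087500-1 were below.

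**Figure D4:**
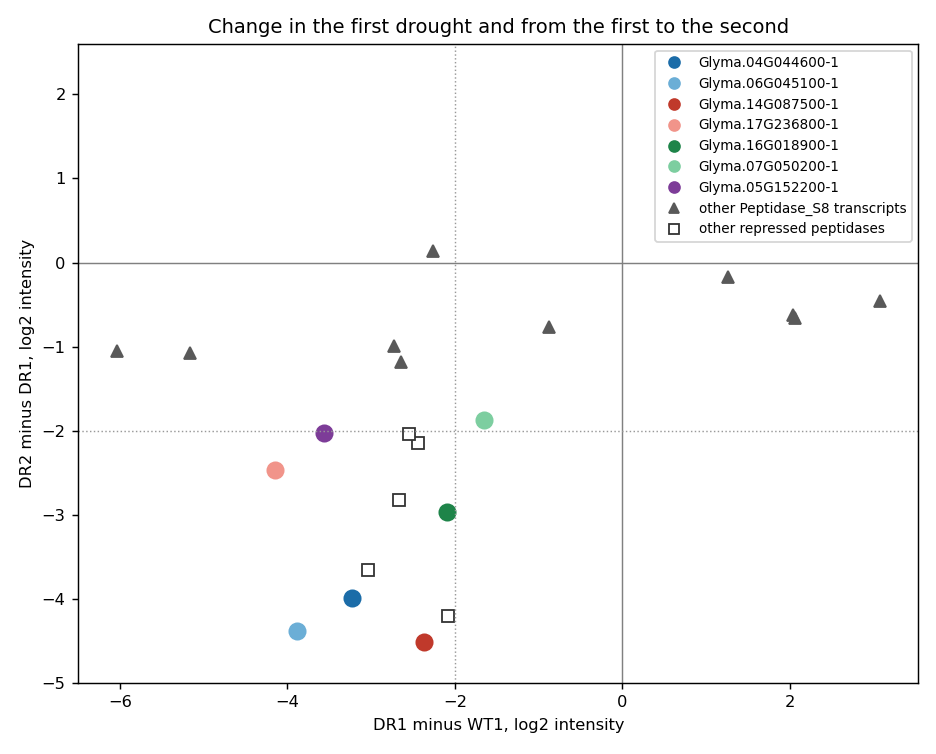
Log2 change at DR1 minus WT1 (horizontal) and at DR2 minus DR1 (vertical) for the 7 subtilases (coloured circles), 10 other Peptidase_S8 transcripts (triangles) and 5 other peptidases of the study's protein degradation class (squares), with dotted lines at the 4-fold limit. The 7 lie at -1.87 or lower on the vertical axis, Glyma.07G050200-1 with a DR2 signal in the background, whereas the other Peptidase_S8 transcripts lie between -1.18 and 0.14.

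The study's class of repressed protein degradation genes also holds 5 peptidases of other kinds, which were likewise picked on these arrays. The serine carboxypeptidases among them are Glyma.13G075200-1 with log2 changes of -2.09 at DR1 relative to WT1 and -4.21 at DR2 relative to DR1, and Glyma.12G010100-1 with -2.67 and -2.83. The pepsin-like aspartic peptidases are Glyma.19G198500-1 (-2.44 and -2.15) and Glyma.11G237900-1 (-2.55 and -2.04), while Glyma.13G267900-1 (-3.04 and -3.66) had no domain name in the tables used. At WT2 all 5 lay within 0.59 of WT1 on the log2 scale and none was called.

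Of the other peptidase families in the annotation, 11 of 13 serine carboxypeptidases, 10 of 13 matrix metallopeptidases and 11 of 25 pepsin-like aspartic peptidases were called lower at DR1 than at WT1. In these families 1, 0 and 6 were called higher. Of all transcripts tested, 3.84% were called lower and 3.6% higher there. Papain-like cysteine peptidases, many of which act in the vacuole, were called higher in 8 of 13 and lower in 3 of 13, and all 4 FtsH peptidases, which degrade damaged proteins of plastid and mitochondrial membranes, were called higher. At DR2 relative to DR1 the numbers called lower were 3 of 13 serine carboxypeptidases, 0 of 13 matrix metallopeptidases and 5 of 25 aspartic peptidases. Called higher were 3 of the aspartic and 4 of 13 papain-like peptidases. Of all transcripts 8.39% were called lower and 6.83% higher there. Some entries, among them Glyma.02G204700-1 and Glyma.17G073200-1, had no probe well above background at DR1 already, so a further fall could hardly be measured in them. The median log2 changes at DR1 relative to WT1 were -2.67 for serine carboxypeptidases, -4.81 for matrix metallopeptidases and 2.12 for papain-like peptidases. Most of the listed matrix metallopeptidases have neighbouring locus numbers, from Glyma.02G027900-1 to Glyma.02G028900-1, and some of these read much alike. Whether their probes bind each other's message was not tested. Entries for a unique exon are counted beside the transcript they belong to. These were the unique-exon entries of Glyma.12G025600-1 and Glyma.17G073200-1, carboxypeptidases called lower at DR1. The unique-exon entries of Glyma.09G069800-1 and Glyma.15G177800-1 were papain-like peptidases called higher there. Since annotated transcripts were also mostly listed for having changed, these shares are not shares of the gene families.

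Inhibitors moved in both directions. Of 9 Kunitz inhibitors, which act on serine peptidases of the trypsin type, the calls at DR1 relative to WT1 were 5 higher and 3 lower, and those at DR2 relative to DR1 were 3 higher and 3 lower, where 6.83% of all transcripts were called higher. The 1 transcript listed under the subtilase propeptide domain changed by 0.49 at DR1 relative to WT1. At DR2 relative to DR1 it changed by 2.98, a called rise at the step where 6 of the 7 subtilases were called lower. The annotation used gives 1 domain name per transcript, so whether it is an inhibitor or a subtilase that also has a peptidase domain is not known here.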

How the data were processed

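Per the file headers, the deposited intensities were spot medians and local backgrounds from Feature Extraction 11.5.1.1, with a processed signal. A second table that the authors deposited gives intensities of 60386 transcripts, background-corrected and normalized with limma at settings not given in the sources used here, which served as an alternative. Of each array file 10 columns were used and 15 were not. Groups follow the sample labels. Median signals were corrected with normexp (offset 0) on the background median, since no mean signal column was given, and quantile normalized. Control spots and the 2 to 11 marked outlier spots per array were left out, and log2 intensities were averaged over probes. A transcript entered the test if 1 or more of its probes exceeded background clearly on each array of some condition (1 more was dropped for a marked spot). The model was fitted in limma 3.58.1 (R 4.3.3) with lmFit, eBayes and Benjamini-Hochberg adjustment over 55087 transcripts. The number of arrays limits the precision: 8 arrays leave 4 residual degrees of freedom. Called means over 4-fold with an adjusted p below 0.05. The scripts were tested on simulated data.

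The 7 transcripts, the lists and the tests were chosen with earlier results of these data known. Named transcripts are the 7, the 5 nearest to their mean profile and the nearest to each, other Peptidase_S8 transcripts with the largest called changes, and the 5 peptidases of the study's degradation class. Of the profiles nearest to single transcripts only those a statement turns on are named. Domain names came from 4464 transcripts in the available part of the study's tables. The 7 loci matched no entry of the RefSeq gene table, so coordinates and sequences are not used here.

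Replicates are from independent experiments by the study's methods. Correlations of deviations between same-numbered arrays ran from -0.31 to 0.30, so numbers were not treated as pairs. Alternatives were the authors' table, the processed signal with 75th percentile scaling, an offset of 50, 75th percentile scaling in place of quantile normalization, medians over probes, no filter on dim transcripts, the replicate number as a block, 1 slide alone, a 2-fold limit, and each array left out. Added after seeing the data were leaving out probes that were never well above background and fitting WT1 and WT2 arrays alone.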

Additional observations from a re-analysis of the deposited data

Results flagged for a closer look

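Among the annotated subtilases outside the list of 7, only Glyma.09G195100-1 was called for a difference between the drought responses, where 10.3% of all transcripts were called lower. It measured 400 and 817 units at DR2 against 629 and 575 at WT2, where the arrays overlapped, and 913 and 890.2 at DR1 against 203 and 231 at WT1, where they did not. The log2 difference between its responses was -2.13 ± 0.46 (adjusted p = 0.0069, limma). The study listed it for a rise at DR1 relative to WT1 on these same arrays. That rise is subtracted in the difference, so the choice favoured a negative value and the p value is no independent test. The level at WT2 was already above that at WT1, and 1 of its 2 probes was not well above background on DR2 replicate 1. Other subtilases outside the 7 differed in the same direction by less than 4-fold. They include Glyma.02G252200-1 (-1.90, adjusted p = 0.0043, limma), Glyma.16G116000-1 (-1.55, adjusted p = 0.03) and Glyma.08G109000-1 (-0.96, adjusted p = 0.037). Only Glyma.13G110800-1 had a positive difference, 0.66 (adjusted p = 0.42).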

How the results depend on the processing

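All changes of the 7 transcripts at DR1 relative to WT1, DR2 relative to DR1, DR2 relative to WT2 and DR2 relative to WT1 kept their sign under every alternative tried. An offset of 50, which compresses dim signals, lowered the number of the 7 called at both steps to 3, against 6, and the Peptidase_S8 transcripts called lower at DR2 than at DR1 to 3, against 6, whereas a 2-fold limit gave 10 of them. Calls of a higher level at DR1 among Peptidase_S8 transcripts numbered 1, against 3, with an offset of 50 and with 75th percentile scaling, and between 1 and 3 with an array left out, the 1 being without WT1 replicate 1. A 2-fold limit called 1 Peptidase_S8 transcript higher at WT2 than at WT1, against 0. Changes near 0 at WT2 relative to WT1 switched sign. For Glyma.05G152200-1 they were -0.024 with the processed signal, -0.0093 with 75th percentile scaling and between -0.17 and 0.18 with an array left out. For Glyma.16G018900-1 they were -0.0074 with the processed signal and between -0.29 and 0.31 with an array left out, and for Glyma.07G050200-1 -0.059 with the authors' table and -0.061 without the dark probe. The difference between the drought responses of Glyma.17G236800-1 ran between -1.76 and 0.40 with an array left out. Where an alternative left out a probe or an array, the cause is that omission, and otherwise the cause was not tested.

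Counts over all transcripts also moved. Called lower at DR1 than at WT1 were 2114, against 3514 with the processed signal, 1285 with an offset of 50 and 6825 at 2-fold, and called higher 1983, against 5824 at 2-fold. Called lower at DR2 than at DR1 were 4620, against 2621 with the offset and 12046 at 2-fold, and called higher 3765, against 2300.0 with the offset and 10087 at 2-fold. Called lower at WT2 than at WT1 were 26, against 50 with the processed signal, 15 with the offset, 391 at 2-fold and between 0 and 58 with an array left out, and called higher 218, against 432, 109, 1481 and between 0 and 400, each 0 being without a WT1 array. The 75th percentile scaling put the median of all transcripts at -0.11 at DR1 relative to WT1 and at 0.12 at DR2 relative to DR1. With the replicate number as a block, 6 of the 7 were called at both steps, 11 Peptidase_S8 transcripts lower at DR1 than at WT1, and Glyma.14G087500-1 and Glyma.17G236800-1 had adjusted p of 0.18 and 0.15 at WT2 relative to WT1, so the block changed none of the calls of the 7. The arrays are few, and most DR2 signals of the 7 lie in the background, which limits the size of the second fall.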
